A study of Mus musculus with 24 samples.

Results

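Metallothioneins and zinc transporters were followed in mouse liver through 8 genes (Mt1, Mt2, Mtf1, Slc30a1, Slc30a10, Slc39a4, Slc39a5 and Slc39a14) out of 37074 gene names carried by the array. The genes were chosen by name because of the large rise of Mt2 with fasting, and each was read through its brightest probe, the one with the highest mean log2 median signal over 24 arrays. Livers came from 12-week-old male mice killed at ZT16 (Zeitgeber time 16, the hour counted from lights on), either fed ad libitum or deprived of food for 24 h. Control mice (LWT, p110α hep+/+) carried floxed alleles of p110α, the catalytic subunit of a class I PI3-kinase encoded by Pik3ca, and no Cre, so the floxed alleles were common to all groups. Mice labelled LKO (p110α hep-/-) were their albumin-Cre+/- p110α flox/flox littermates, in which Cre acts in hepatocytes and leaves the other liver cells with the gene. There were 6 mice, each with 1 array, in each of the LWT_Fed, LWT_Fasted, LKO_Fed and LKO_Fasted groups. The comparisons asked how the 8 genes stood in fed and fasted liver and whether they differed between the genotypes.

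Metallothioneins are small, cysteine-rich proteins that bind zinc, copper and cadmium, and their genes are switched on in liver by metals, glucocorticoids and inflammatory cytokines. MTF1 is the zinc-sensing transcription factor that binds metal response elements in the promoters of Mt1, Mt2 and the exporter gene Slc30a1. SLC30A proteins (ZnT) move zinc out of the cytosol and SLC39A proteins (ZIP) move it in, and some members also carry manganese or iron.

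Mt1 and Mt2 lie next to each other on chromosome 8, and their promoters are shown because these are the members that moved furthest. The 250 bases before the annotated start, chr8:94178839-94179088 for Mt1 and chr8:94172368-94172617 for Mt2, are RefSeq sequence of GRCm38.p6, plus strand, 5′ to 3′, and capitals mark matches to the metal response element core, searched as TGCACNC and TGCGCNC on both strands with overlapping matches counted apart.
Mt1: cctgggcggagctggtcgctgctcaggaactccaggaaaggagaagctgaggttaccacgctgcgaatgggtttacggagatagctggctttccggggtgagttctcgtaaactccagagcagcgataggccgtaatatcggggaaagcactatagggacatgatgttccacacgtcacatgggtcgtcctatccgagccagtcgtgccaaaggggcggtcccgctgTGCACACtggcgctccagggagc
Mt2: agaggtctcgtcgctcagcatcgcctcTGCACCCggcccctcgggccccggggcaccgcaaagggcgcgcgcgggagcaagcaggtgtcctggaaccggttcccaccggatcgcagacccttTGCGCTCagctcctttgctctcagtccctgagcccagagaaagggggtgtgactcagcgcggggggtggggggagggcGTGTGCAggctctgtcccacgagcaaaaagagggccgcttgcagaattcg

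The Mt1 window held 1 core match and the Mt2 window held 3. At least 1 match was found in 21.4% of 32851 promoter windows of this length, and 1.26% held 3 or more. Promoter sequences were matched by symbol for 6 of the 8 members, all but Slc39a4 and Slc39a14. Slc30a1 had 1 match, Slc30a10 had 3 of which 2 overlap each other, and Mtf1 had 0. Slc39a5 had 1 match in one of its windows and 0 in the other. When the 50 bases after the start were added, the counts were 3 for Mt1, 4 for Mt2 and 2 for Slc30a1, and 25.7% of all windows held at least 1 and 1.97% held 3 or more. A match describes letters and was not tested as a binding site, and no match says only that these letters are not in the window.

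The arrays themselves set some limits. The share of spots well above background ranged from 54.74% to 63.01% over the arrays, and 0 spots were saturated. The Pik3ca probe was not lower on the arrays labelled LKO. Its mean log2 signal was 12.54 ± 0.26 (SD, n = 6) in LKO_Fed and 11.91 ± 0.21 in LWT_Fed. Whether it lies in the deleted part of the gene was not examined, so for these arrays the genotypes rest on the labels. The authors report the deleted allele by PCR in p110α hep-/- liver and no p110α protein on blots, without naming these arrays. Arrays 1 and 2 of LKO_Fasted stood apart on the second principal component (13.6% of the variance), with scores of 35.1 and 31.3 against 1.40 to 2.92 for the other 4. The hepatocyte markers Alb, Apoa1, Ttr, Cps1 and Serpina1a were well above background on every array. By limma 0 of the 5 were called between genotypes, where 3.83% of all genes in fed and 4.06% in fasted liver were. At an unadjusted p under 0.05 there were 2 in fed and 1 in fasted liver, where 30.1% and 33.2% of all genes were. Under the fold minimum, Ttr had log2 differences of -0.21 between fed and -0.41 between fasted groups, the latter without overlap, and Apoa1 had 0.28 between fed groups. In bulk liver RNA, fewer cells of a type and less RNA per cell cannot be told apart.

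Values are log2 signals after quantile normalisation, and they can be set side by side only within a gene, because each gene has its own probe. All 8 members passed the filter on dim probes, which asked for 5 of 6 arrays well above background in at least 1 group. Slc39a5 passed only through LWT_Fasted. Differences are from a linear model (limma) with slide as a term and array weights, so they can depart from the plain difference of group means. A gene was called where its adjusted p did not pass 0.05 and its fold change was over 1.5.

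**Figure D1:**
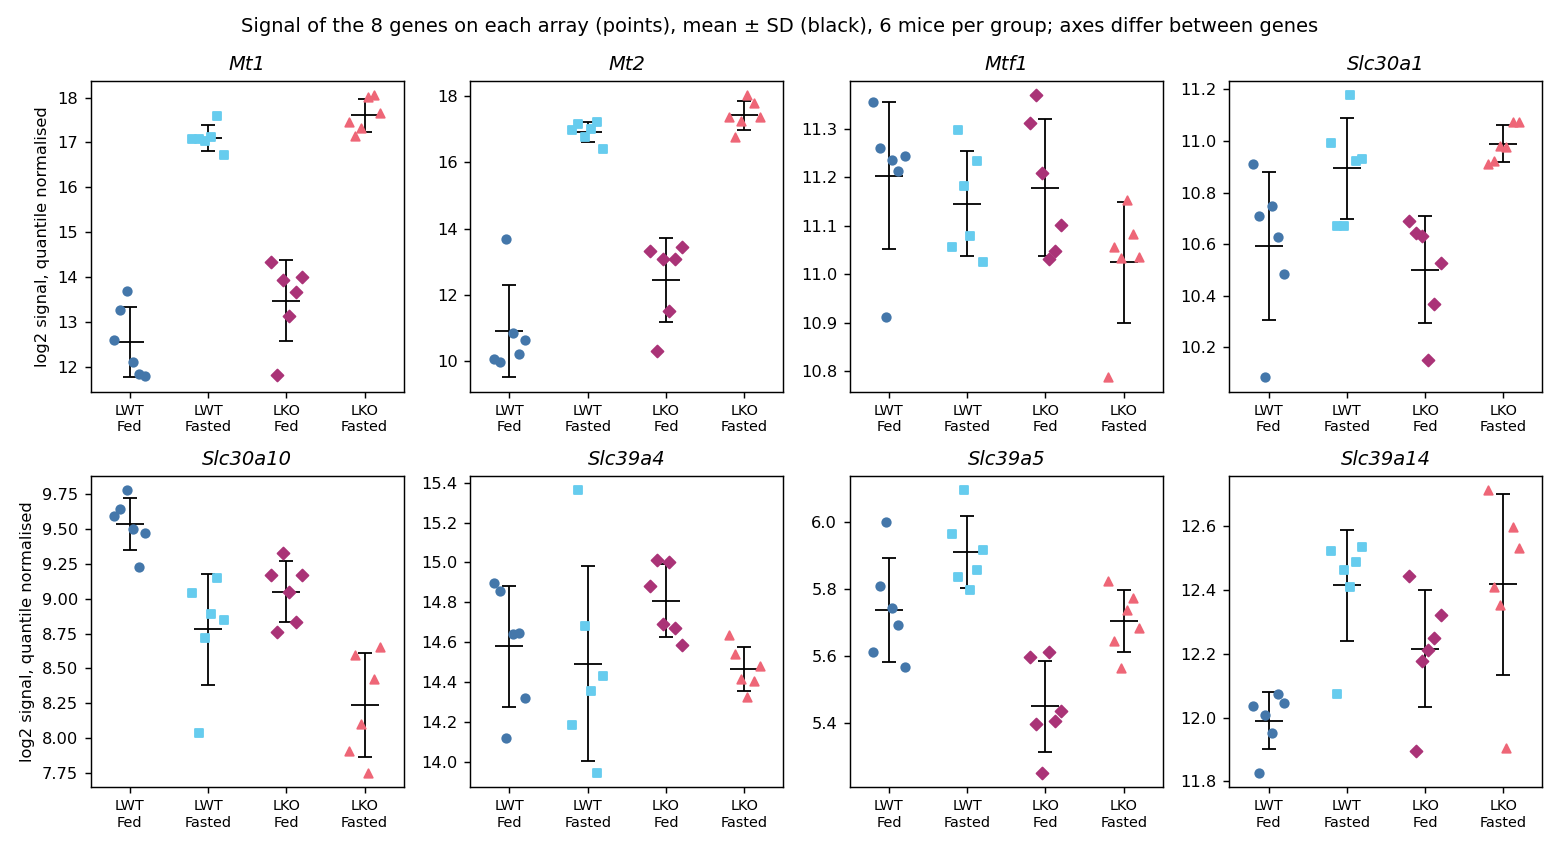
Log2 normalised signal (y axis, scaled for each gene) of the 8 genes on each array (points) in LWT_Fed, LWT_Fasted, LKO_Fed and LKO_Fasted (x axis), with the mean and SD of 6 mice in black. Every fasted array lay above every fed array for Mt1 and Mt2, and the fed arrays of these genes were more spread than the fasted ones.

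Mt2, one of the 2 main liver metallothionein genes, was read at chr8:96697371-96697430 (NCBI37/mm9, the build of the probe coordinates, for which no exon annotation was used here). In LWT_Fed the 6 arrays gave 10.06, 9.98, 13.67, 10.84, 10.21 and 10.65, replicates 1 to 6 in turn. In LKO_Fed they gave 13.32, 10.30, 13.07, 11.52, 13.08 and 13.43. One LWT_Fed array thus stood with the upper LKO_Fed arrays, and 1 LKO_Fed array stood with the lower LWT_Fed arrays. The fasted values ran from 16.39 through a median of 16.99 to 17.23 in LWT_Fasted, and from 16.77 through 17.37 to 18.03 in LKO_Fasted. No fasted array overlapped a fed one in either genotype. The fitted log2 difference between fasted and fed was 6.40 ± 0.43 (SE) in LWT, or 84.6-fold, and 4.88 ± 0.48 in LKO, or 29.4-fold. These are the values that chose the members, so they are given as a description without a test.

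Mt1, its neighbour and close relative, was read at chr8:96704165-96704224 (mm9). Its probe and that of Mt2 share no run of letters longer than 7 of their 60 bases. The 6 LWT_Fed arrays gave 12.61, 13.27, 13.70, 12.11, 11.84 and 11.81, and the 6 LKO_Fed arrays gave 14.33, 11.82, 13.93, 13.13, 13.67 and 14.00. Fasted values ran from 16.71 through a median of 17.08 to 17.60 in LWT_Fasted and from 17.15 through 17.55 to 18.05 in LKO_Fasted, again clear of all fed arrays. The log2 difference with fasting was 4.78 ± 0.30 in LWT (27.4-fold) and 3.96 ± 0.33 in LKO (15.6-fold). A second, dimmer Mt1 probe at chr8:96703844-96703903 gave 2.58 ± 0.58 in LWT and 2.04 ± 0.64 in LKO, with fed and fasted arrays overlapping in LKO, so the direction was shared but the size depended on the probe.

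The remaining members differed far less with fasting. Slc30a10, a manganese exporter of the ZnT family (chr1:187292107-187292166), was lower in fasted liver. Its arrays ran from 9.23 through a median of 9.55 to 9.78 in LWT_Fed and from 8.03 through 8.87 to 9.15 in LWT_Fasted, and from 8.76 through 9.11 to 9.33 in LKO_Fed and from 7.75 through 8.26 to 8.65 in LKO_Fasted. The groups did not overlap in either genotype, and the log2 difference was -0.62 ± 0.14 in LWT and -0.81 ± 0.15 in LKO.

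Slc30a1, the zinc exporter of the plasma membrane (chr1:193736760-193736819), ran from 10.08 through 10.67 to 10.91 in LWT_Fed and from 10.67 through 10.93 to 11.18 in LWT_Fasted, which overlap. In LKO it ran from 10.15 through 10.58 to 10.69 in the fed group and from 10.91 through 10.98 to 11.07 in the fasted group, which do not. The log2 differences were 0.25 ± 0.11 and 0.48 ± 0.12.

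Slc39a14, a ZIP importer of zinc, manganese and iron (chr14:70703394-70703453), ran from 11.83 through 12.02 to 12.07 in LWT_Fed and from 12.07 through 12.47 to 12.54 in LWT_Fasted, with 1 fasted array level with the top of the fed group. Its log2 difference with fasting was 0.47 ± 0.09 in LWT and 0.24 ± 0.10 in LKO, where arrays ran from 11.90 to 12.44 fed and from 11.90 to 12.71 fasted and overlapped.

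Mtf1 itself (chr4:124521937-124521996) kept within 10.79 and 11.37 over all 24 arrays, and its log2 difference with fasting was -0.12 ± 0.07 in LWT and -0.17 ± 0.08 in LKO. The 3 other Mtf1 probes gave log2 differences from -0.53 to 0.27 over both genotypes, so they did not share a direction. Slc39a4, the ZIP importer known from intestinal zinc uptake (chr15:76442866-76442925), ran from 13.94 to 15.36 over all arrays. Its log2 difference was -0.26 ± 0.14 in LWT and -0.36 ± 0.15 in LKO, and the groups overlapped in both.

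Slc39a5, a ZIP importer placed on the basolateral side of polarised cells, was dim (its probe is placed over chr10:127834340-127834762, a span longer than its 60 bases). It was well above background on 6 of 6 LWT_Fasted arrays, 2 of 6 LWT_Fed arrays, 2 of 6 LKO_Fasted arrays and 0 of 6 LKO_Fed arrays. Values ran from 5.25 to 6.09 over all arrays. The means were 5.74 in LWT_Fed, 5.91 in LWT_Fasted, 5.45 in LKO_Fed and 5.70 in LKO_Fasted, and no difference is read from them, since 3 of the 4 groups were mostly not well above background.

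In LWT, 3 of the 8 members were called with fasting (Mt1 and Mt2 higher, Slc30a10 lower), where 10.0% of 21495 genes were called. In LKO the same 3 were called, where 12.8% of genes were. The members' median log2 difference was 0.24 in each genotype, against -0.0075 in LWT and -0.021 in LKO over all genes tested. These are the contrasts in which the Mt2 rise chose the members, so nothing is read from the counts. Among the 3 calls, that of Slc30a10 in LWT fell under the fold minimum without LWT_Fasted replicate 2 (log2 difference -0.57) and without LWT_Fasted replicate 3 (-0.58), and also with normexp background correction (-0.58).

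The fed groups were next set side by side between genotypes. This comparison shares the LWT_Fed and LKO_Fed arrays with the contrasts that chose the members, and the spread of Mt2 within LWT_Fed was known at the choice, so the values of Mt1 and Mt2 are a description without a test. Mt2 stood 4.07-fold higher in LKO_Fed than in LWT_Fed (log2 difference 2.03 ± 0.44), with 4 of 6 LKO_Fed arrays above 13 and 5 of 6 LWT_Fed arrays below 11. For Mt1 the fold was 2.32 (1.21 ± 0.31). The groups overlapped for both genes. By the rule used for all genes, these 2 of the 8 members were called, where 3.83% of genes were, and nothing is read from the count.

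The array weights bear on these values. LWT_Fed replicate 3, the high one, had the lowest weight of the 24 arrays (0.320, where the highest was 1.74). Without array weights the log2 difference was 1.55 for Mt2 and 0.92 for Mt1, and neither was called. With weights and with each array left out in turn, it stayed between 1.77 and 2.40 for Mt2 and between 1.04 and 1.47 for Mt1. Both genes kept their call each time, but this does not undo the choice of the genes, so no support is read from it. Within slides, each of which held 2 arrays of every group, the Mt2 difference was -0.07 on slide 1, 3.18 on slide 2 and 1.55 on slide 3. Slide 1 carried the high LWT_Fed array and the lowest LKO_Fed array. For Mt1 the within-slide differences were 0.14, 1.06 and 1.57. The dimmer Mt1 probe gave 1.17 ± 0.60.

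**Figure D2:**
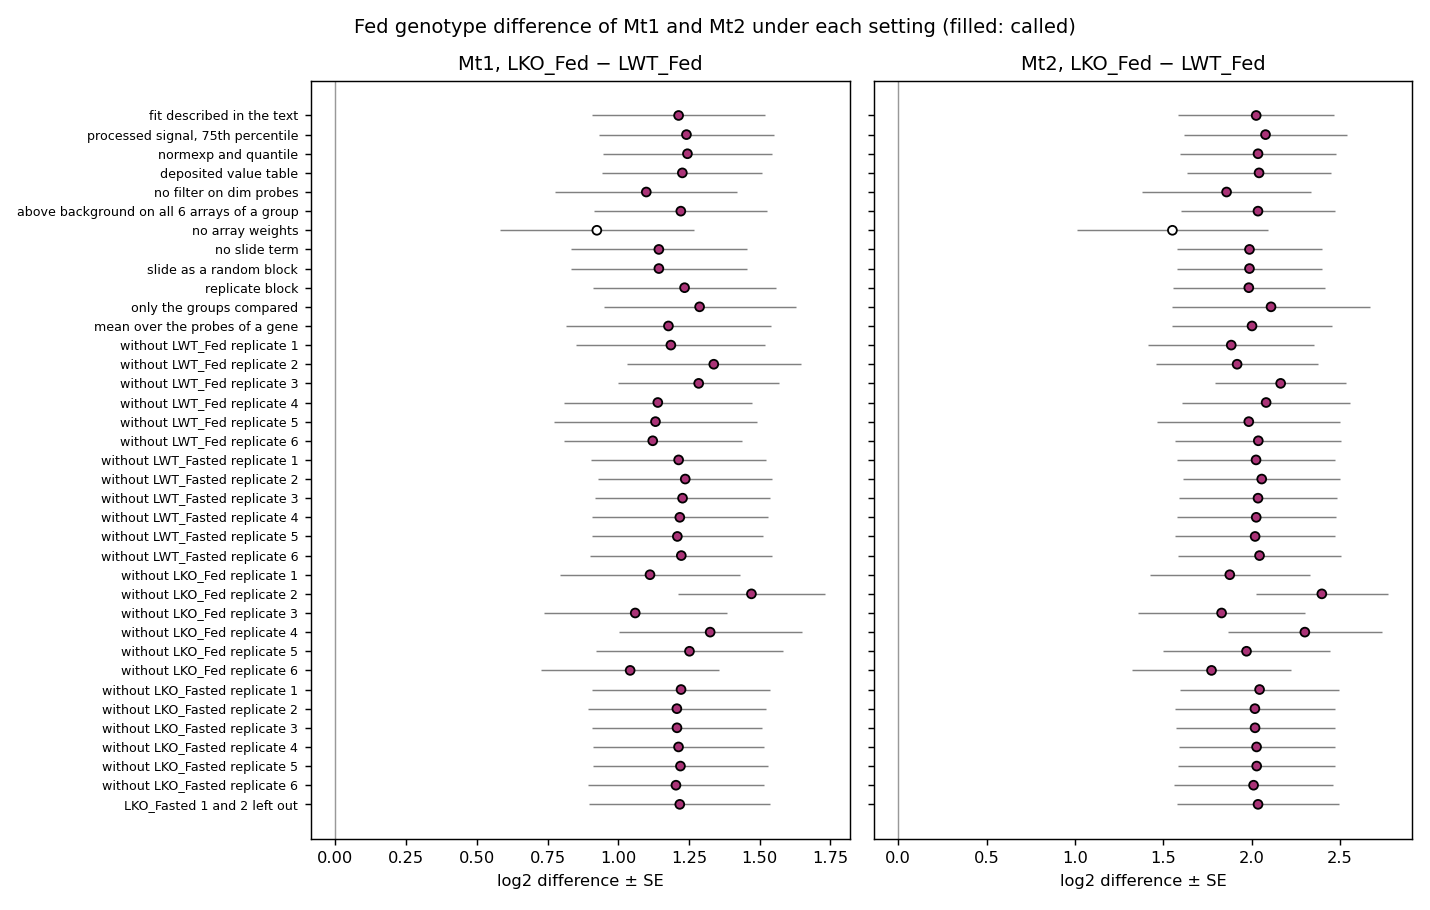
Fitted log2 difference LKO_Fed minus LWT_Fed (x axis, bars show SE) of Mt1 (left) and Mt2 (right) in the fit described and under each other setting (y axis), with filled points where the gene was called. Without array weights the differences were 0.92 and 1.55 and the points are open, and under every other setting drawn both genes were called. These calls are a description and not a test, since the arrays took part in the choice of the genes.

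No other member was called between the fed groups. Slc30a10 had a log2 difference of -0.41 ± 0.14 (adjusted p = 0.0508), with overlapping arrays. Slc39a14 had 0.23 ± 0.09 (adjusted p = 0.0877) and overlapping arrays. Slc39a5 was well above background on 2 LWT_Fed arrays and 0 LKO_Fed arrays (means 5.74 and 5.45), and no difference is read from it. For Mtf1 the 95% interval of the difference was -0.21 to 0.08, for Slc30a1 -0.39 to 0.06 and for Slc39a4 -0.13 to 0.46.

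In fasted liver the metallothioneins were not called different between genotypes, in a comparison that likewise shares its arrays with the fasting contrasts. The log2 difference of LKO_Fasted minus LWT_Fasted was 0.50 ± 0.47 for Mt2 (interval -0.47 to 1.47, adjusted p = 0.498) and 0.40 ± 0.33 for Mt1 (interval -0.27 to 1.08, adjusted p = 0.426). Intervals of this width leave room for a difference in either direction. Slc30a10 was the only member called, at 1.51-fold lower in LKO_Fasted (log2 difference -0.59 ± 0.15, adjusted p = 0.00638), and the arrays of the groups overlapped. This made 1 of 8 members, where 4.06% of genes were called.

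The Slc30a10 call lay at the edge of the fold minimum and was lost under 8 of 12 other settings, among them no array weights and no slide term, where the log2 difference fell between -0.58 and -0.54. In the fit of only the groups compared it also missed the p threshold (-0.57 ± 0.19, adjusted p = 0.0754). It was also lost without LWT_Fasted replicate 1 (-0.56), 5 (-0.54) or 6 (-0.56) and without LKO_Fasted replicate 1 (-0.52), 3 (-0.54) or 4 (-0.56). Without LKO_Fasted replicates 1 and 2 together it was -0.57 (adjusted p = 0.0118). Within the 3 slides the difference was -0.27, -0.62 and -0.74. Its direction was the same in all of these. Slc39a5, which passed the filter only through LWT_Fasted, had means of 5.70 in LKO_Fasted, where 2 of 6 arrays were well above background, and 5.91 in LWT_Fasted, and no test is read from it. The 95% interval was -0.27 to 0.04 for Mtf1, -0.18 to 0.30 for Slc30a1, -0.25 to 0.38 for Slc39a4 and -0.20 to 0.21 for Slc39a14.

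**Figure D3:**
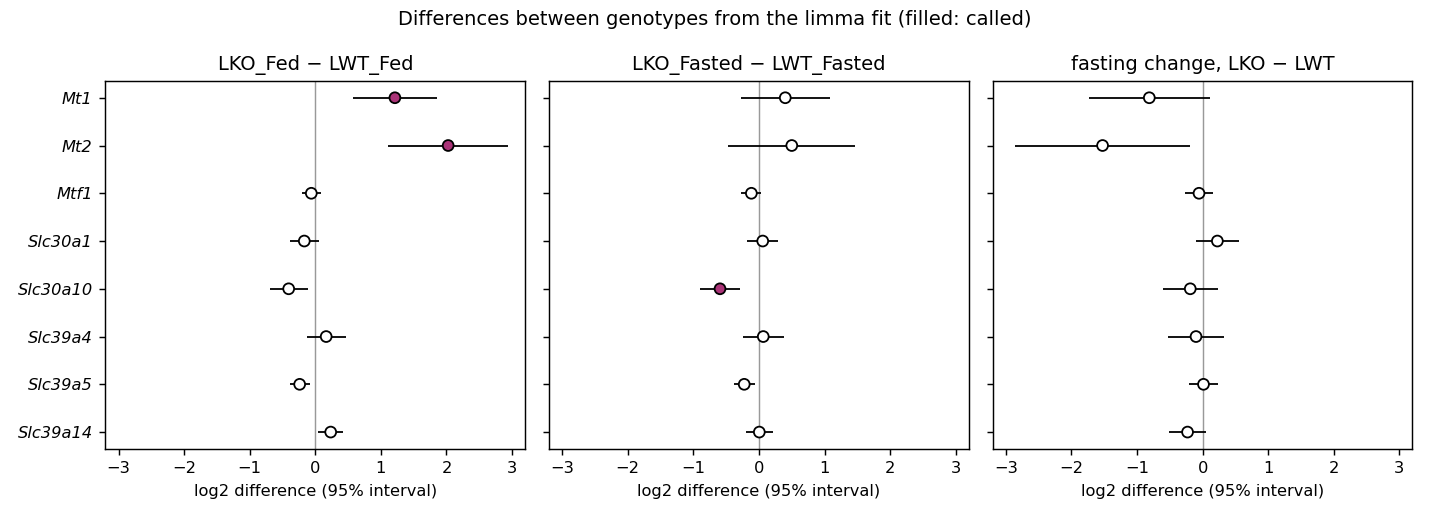
Fitted log2 difference (x axis, 95% interval as a line) of each of the 8 genes (y axis) between genotypes in fed liver (left), in fasted liver (middle) and in the fasting change (right), with filled points for called genes. Mt1 and Mt2 were called in fed liver, Slc30a10 in fasted liver, and no gene in the fasting change.

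The fasting change was then compared between genotypes directly, as an interaction in the same model. The term is made of the fasting differences that chose the members, so the values of Mt1 and Mt2 are given as a description. For Mt2 the term was -1.52 ± 0.64 (SE) and for Mt1 it was -0.81 ± 0.45, both toward a smaller change in LKO. By construction the term is the fasted genotype difference (0.50 for Mt2 and 0.40 for Mt1) less the fed one (2.03 and 1.21). Neither gene was lower in LKO_Fasted, so the sign of the terms comes from the fed difference, which depended on the array weights. By limma, 0 of the 8 members were called, where 3.09% of genes were called. Of the 8, 1 had an unadjusted p under 0.05, where 23.8% of all genes did, and it is not read as support. Without LKO_Fed replicate 2, the lowest LKO_Fed array, the Mt2 term was -1.87 and Mt2 met the rule for a call, which is likewise not read as support. For the other 6 members the term lay between -0.23 and 0.23.

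Marker genes of other cell types were read beside these results. Of 7 exocrine pancreas markers 3 were measured and 1, Cela2a, was called higher in LKO, by 0.82 on the log2 scale in fed liver and by 0.63 in fasted liver. With fasting Cela2a was called lower, at -0.79 in LWT and -0.99 in LKO. Between genotypes Ctrb1 went the other way, at -0.36 fed (adjusted p = 0.0154) and -0.31 fasted (adjusted p = 0.039), under the fold minimum, and Cel was at 0.05 and -0.0072. Cpa1, Pnlip, Prss2 and Amy2b were well above background on 0 of 24 arrays. The log2 of the summed pancreas signal was 9.24 to 9.64 in LWT_Fed, 9.47 to 10.14 in LKO_Fed, 8.82 to 9.16 in LWT_Fasted and 8.74 to 9.23 in LKO_Fasted. Of 5 enterocyte markers 1, Fabp2, passed the filter, and it was lower in LKO_Fed by a log2 difference of -1.06. With fasting Fabp2 was called higher in LKO (1.40) and not in LWT (0.22), and the difference of these changes was called (1.18 ± 0.15). Lct was well above background on 0 of 24 arrays. Of 4 measured adipocyte markers, Cfd alone was called, lower in LKO at -2.76 fed and -3.00 fasted. The median of the 4 was -0.13 in fed and in fasted liver, and their highest values were -0.040 and 0.0011. Of 3 measured erythroid markers, Alas2 was lower, at -0.80 and -0.83. The other erythroid markers, Hba-a1 and Hbb-b1, were not called, with -0.32 and -0.37 in fed liver and 0.50 and 0.38 in fasted liver. By limma 0 of the 6 Kupffer cell markers were called between genotypes, where 3.83% of all genes in fed and 4.06% in fasted liver were. At an unadjusted p under 0.05 there was 1 in fed and 1 in fasted liver, where 30.1% and 33.2% of all genes were. The log2 of the summed Kupffer cell signal was 14.62 to 15.15 in LWT_Fed, 14.32 to 15.07 in LKO_Fed, 13.95 to 15.18 in LWT_Fasted and 13.91 to 16.12 in LKO_Fasted. The fasted differences of these 6 markers ran up to 1.47 (Marco, adjusted p = 0.0879). The part of these genes in the metallothionein and Slc30a10 results was not tested.

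Mt1 and Mt2 followed each other in 3 of the 4 groups. Over 6 arrays each, Pearson's r between them was 0.97 in LKO_Fed, 0.94 in LKO_Fasted and 0.84 in LWT_Fasted, and 0.58 in LWT_Fed, given as descriptions. Spearman's rho in LWT_Fed was 0.03. There, replicate 2 had the lowest Mt2 (9.98) but the second highest Mt1 (13.27). Replicate 3 was highest for both. The SD of Mt2 was 1.40 in LWT_Fed and 1.26 in LKO_Fed, against 0.31 and 0.44 in the fasted groups.

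**Figure D4:**
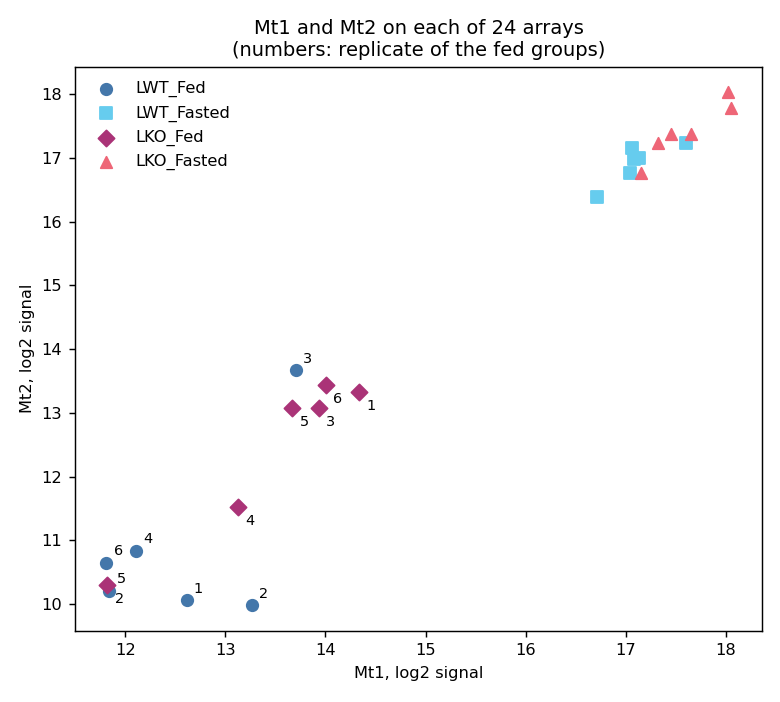
Log2 signal of Mt2 (y axis) against Mt1 (x axis) on each of 24 arrays, with replicate numbers beside the fed arrays. The fasted arrays form a tight group above 16 on both axes, LWT_Fed replicate 3 lies above every LKO_Fed array on the Mt2 axis (13.67 against at most 13.43) and within their range on the Mt1 axis, and LWT_Fed replicates 1 and 2 have more Mt1 than the other LWT_Fed arrays of like Mt2.

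LWT_Fed replicate 3 was set apart by the acute phase genes too, the plasma and defence proteins that liver makes in inflammation. It lay above the other 5 LWT_Fed arrays for 11 of the 13 acute phase genes listed. Saa1 was 17.85 there and 13.46 to 14.15 on the others. Saa2 was 17.97 against 13.46 to 14.19, and Lcn2, an iron-sequestering lipocalin, was 13.74 against 8.73 to 9.81. Hpx, the heme carrier, was 18.19 against 17.48 to 17.69. Socs3, a feedback inhibitor of cytokine signalling, was the exception below the others (9.29 against 9.32 to 9.86), and Fgb lay among them. Of 9 glucocorticoid-induced genes, 2 (Per1 and Tat) were above the other arrays, 1 (Fkbp5) below and 6 among them. On the same array Mtf1 (10.91), Slc30a1 (10.08) and Slc39a4 (14.12) were at their lowest in the group, and Slc30a10 (9.78) was at its highest. The mean log2 level of the 13 genes, relative to the LWT_Fed mean, was 1.15 on this array, between -0.32 and -0.15 on the other LWT_Fed arrays and between -0.23 and 0.35 on the LKO_Fed arrays. Their part in the Mt2 level was not tested.

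Genes with the pattern most like Mt2 were ranked by Pearson's r over 14350 named genes outside the members, as a description. Over all 24 arrays they were Lbp (0.98), Por (0.96), Cyp4f15 (0.96), Gpat4 (0.95) and Mat1a (0.95), and Mt1 stood at 0.98. These r rest largely on the gap between fed and fasted arrays. Lbp, the lipopolysaccharide-binding protein of plasma, ran from 10.87 to 11.64 in LWT_Fed, from 12.53 to 12.79 in LWT_Fasted, from 11.22 to 11.83 in LKO_Fed and from 12.53 to 12.97 in LKO_Fasted. Por, the reductase that feeds electrons to cytochromes P450, ran from 14.72 to 15.17, from 16.49 to 16.69, from 15.18 to 15.61 and from 16.29 to 16.66 in the same order. When each group was centred on its mean, the list was Galns (0.88), Lbp (0.80), Abhd15 (0.78), C4a (0.77) and Farp2 (0.75), with Mt1 at 0.78. Lbp was the gene named by both rankings. Without LWT_Fed replicate 3 only 1 of these 5 genes, Galns, stayed among the first 5 of the centred list, and Lbp did not.

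Over the 6 LWT_Fed arrays alone the most similar genes were Nek6, Ptp4a3, Lcat, Slc38a10 and Atxn7l2 (r of 0.99 each), while Mt1 reached 0.58 and was exceeded by 2650 genes. With 6 arrays and 1 far from the rest this ranking was unstable. Without replicate 1, 3, 4 or 5, each left out alone, 0 of these 5 genes were among the first 5, and without replicate 2 or 6 only 1 was. With the processed signal 0 were. Without replicate 3, r between Mt1 and Mt2 was -0.67.

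The rest of the zinc transporter families gave the setting for the members. Of 8 other Slc30a genes 7 were measured, and of 11 other Slc39a genes 10 were. With fasting in LWT, 2 of these 17 were called, where 10.0% of all genes were. Slc30a8, the zinc transporter of insulin granules, was at least 1.46-fold higher in LWT_Fasted (mean 6.24 ± 0.18) than in LWT_Fed (5.59 ± 0.07), where it was not well above background on any array. For this bound, each array of LWT_Fed counts at the lowest signal well above background on it, or at its own value where that is higher. It passed the filter only through the fasted groups, so its call is a description. Slc39a10, a plasma membrane importer, had a log2 difference of -0.92 ± 0.12 (adjusted p = 1.84e-06) with no overlap, from 7.49 ± 0.29 in LWT_Fed to 6.54 ± 0.18 in LWT_Fasted. Slc39a11, another ZIP gene, had -0.46 ± 0.10, under the fold minimum.

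In LKO, 1 of the 17 was called with fasting, where 12.8% of all genes were. Slc39a11 was lower by a log2 difference of -0.71 ± 0.11 without overlap, from 12.17 ± 0.25 to 11.45 ± 0.13. Slc39a10 had -0.49 ± 0.13 and Slc30a7, an exporter into the Golgi, had -0.42 ± 0.08, both under the fold minimum. Between genotypes limma called 0 of the 17 in fed liver, in fasted liver or in the fasting change, where 3.83%, 4.06% and 3.09% of all genes were, and 7, 7 and 2 of them had an unadjusted p under 0.05, where 30.1%, 33.2% and 23.8% of all genes did. An adjusted p of at most 0.05 with a fold under the minimum was found for 3 of the 17 in fed liver and 2 in fasted liver. An adjusted p this low, with any fold, was found for 16.4% and 20.6% of all genes.

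**Figure D5:**
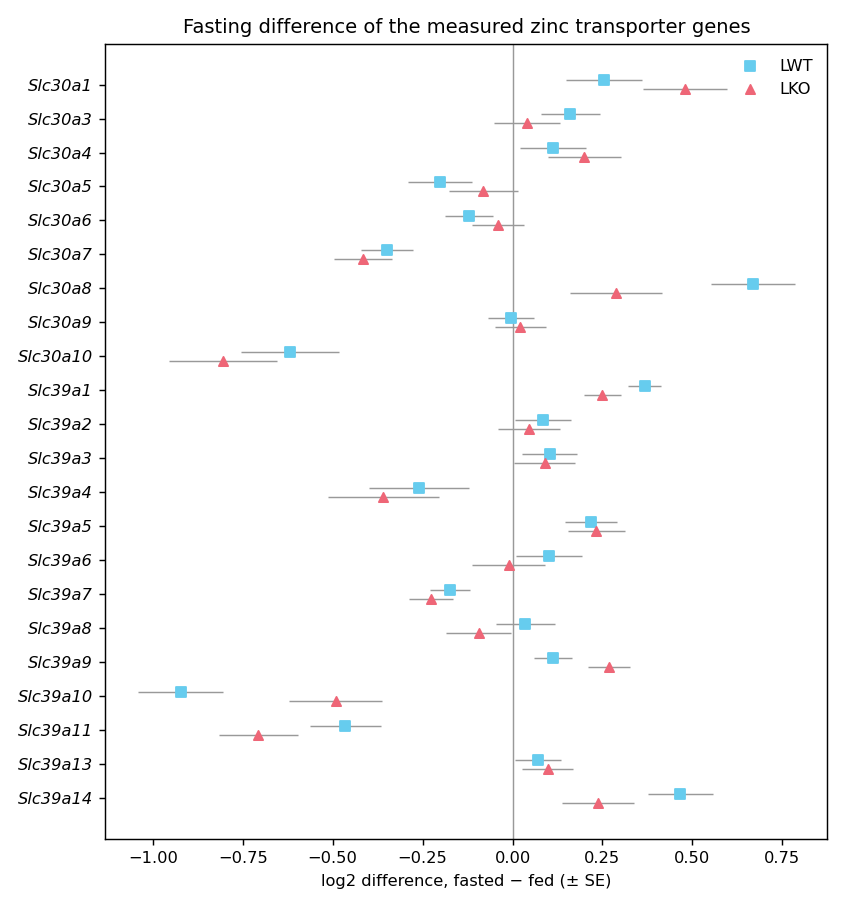
Fitted log2 difference fasted minus fed (x axis, bars show SE) of the measured Slc30a and Slc39a genes (y axis) in LWT (squares) and LKO (triangles). The lowest value in LWT was -0.92 (Slc39a10), the point of Slc30a8 in LWT stands against a fed group not well above background and has only a bound, and Slc30a10 was lower with fasting in both genotypes.

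Of the other metallothionein genes, Mt3 was measured and Mt4 was not. Mt3 had log2 differences with fasting of -0.17 ± 0.06 in LWT and -0.25 ± 0.07 in LKO, opposite in sign to Mt1 and Mt2 and under the fold minimum. Of 5 genes linked to MTF1, 2 were called with fasting in LWT, Ndrg1 higher (0.70 ± 0.13) and Slc39a10 lower, as given above, where 10.0% of all genes were called. In LKO 0 of the 5 were called by limma, where 12.8% of all genes were. There, 2 had an unadjusted p under 0.05, where 48.7% of all genes did. Among 9 copper handling genes, 0 were called in any of the 5 comparisons, where 3.09% to 12.8% of all genes were. By limma, 6 of the 9 had an unadjusted p under 0.05 with fasting in LWT and 5 with fasting in LKO. The shares of all genes at this threshold were 48.8% and 48.7%. Between fed groups 3 did, between fasted groups 4 and in the fasting change 4, where 30.1%, 33.2% and 23.8% of all genes did.

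Of 9 glucocorticoid-induced genes, 5 were called higher and 1, Tsc22d3, lower with fasting in LWT, and 4 higher and Tsc22d3 lower in LKO, where 10.0% and 12.8% of all genes were called in either direction. Fkbp5, a co-chaperone of the glucocorticoid receptor, had a log2 difference of 2.12 in LWT and 1.51 in LKO. Between genotypes in fasted liver, Fkbp5 (-0.62), Tsc22d3 (-1.41) and Zbtb16 (-0.98) were lower in LKO_Fasted, where 4.06% of all genes were called. The fasting change of Tsc22d3 differed between genotypes by -1.38 ± 0.27 (limma, adjusted p = 0.00348), the only 1 of the 9 called there, where 3.09% of all genes were. The terms of the 9 ran from -1.38 to -0.0080 with a median of -0.61. Of them, 5 had an unadjusted p under 0.05, where 23.8% of all genes did. In fed liver limma called 0 of the 9, where 3.83% of all genes were called, and 0 had an unadjusted p under 0.05, where 30.1% of all genes did.

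The 13 acute phase genes listed did not move together with fasting. Of them, 1 was called higher and 2 lower in each genotype, where 10.0% of all genes in LWT and 12.8% in LKO were called. Socs3 was the listed gene higher in both (1.67 in LWT and 1.97 in LKO). Lbp, ranked above for its likeness to Mt2, was not on the list and had 1.63 and 1.15. Between genotypes Socs3 alone was called, in fasted liver (0.92 ± 0.24 higher in LKO_Fasted, adjusted p = 0.00908), where 4.06% of all genes were called.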

How the data were processed

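Total liver RNA was hybridised to 1-colour Agilent arrays, and the authors deposited scanner output of Agilent Feature Extraction 10.10.1.1 holding spot intensity on a linear scale, not scaled between arrays. They also deposited a table of normalised log2 values, used here as an alternative. Log2 median signals of probes well above background on at least 5 of 6 arrays of 1 group (32197 probes) were quantile normalised, and R 4.3.3 with limma 3.58.1 fitted group and slide with array weights. P-values were adjusted by the Benjamini-Hochberg method over all 32197 probes, and 1 probe per gene gave 21495 genes. The procedure was tested on simulated data. The 8 genes, the gene lists and the tests were chosen with earlier results of these data known. Named beside the members were list genes called between genotypes, the 3 other zinc transporters that differed most in each fasting contrast and the 5 genes most like Mt2, and further list genes named were chosen after their values were seen. Each array is a separate mouse. The number of arrays limits the precision. Normalisation, background, filter, weights, slide, replicate number, probe choice and single arrays were varied as alternatives.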

Additional observations from a re-analysis of the deposited data

Results flagged for a closer look

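In 4 of the 32 sets of 6 arrays (8 genes in 4 groups), 1 array lay farther from its neighbours than Dixon's criterion allows, where chance gives about 1 in 20 sets. The spread of Mt2 within LWT_Fed was known when the genes were chosen, so that set is no independent case. Mt2 was 13.67 on LWT_Fed replicate 3, and the nearest array of the group was at 10.84. On the same array Mtf1 was 10.91, with the nearest at 11.21. Mtf1 was also low on LKO_Fasted replicate 1, at 10.79 against 11.03 for the nearest. Slc39a14 was 12.07 on LWT_Fasted replicate 2, where the nearest was 12.41.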

How the results depend on the processing

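Of 1432 values of the 8 genes under other settings, 1387 kept their direction and side of the threshold, and causes of the other changes were not tested. The members called between fasted groups went from 1 to 0 with normexp, no dim-probe filter, no array weights, no slide term, slide as a random block, the replicate block, only the groups compared and without LKO_Fasted replicates 1 and 2, and to 2 with no minimum fold change, where 20.6% of all genes were called. Leaving out 1 array gave 0 to 1 there and 0 to 1 in the interaction (Mt2, without LKO_Fed replicate 2). Between fed groups 0 were called without array weights. With no minimum fold change 5 were called with fasting in LWT and 5 in LKO, where 41.5% of all genes were in each. With fasting in LWT, Slc30a10 lost its call with normexp (-0.58), and the fitted value of Slc39a5 was 0.22, or 0.83 with the processed signal, from which no call is read. That setting changed signal and scaling together, to the processed signal scaled to the 75th percentile of each array. Same-numbered arrays correlated between -0.18 and 0.14 after each group was centred, so no pairing by number was seen, though none is excluded. The replicate block ended 1 call, Slc30a10 between fasted groups (-0.57, adjusted p = 0.0187), and no other call of a member. Other zinc transporters called with the processed signal numbered 2 with fasting in LKO, 3 between fed groups, 1 between fasted groups and 1 in the interaction, and with normexp 1 with fasting in LWT. Between genotypes and in the interaction these were Slc30a3, Slc30a8 and, between fed groups, Slc39a10, and the first 2 were mostly not well above background in a group compared. Differences near 0, none called, changed sign. Slc39a14 between fasted groups was -0.021 with the processed signal and -0.035 without LKO_Fasted replicates 1 and 2. Slc39a4 was -0.026 without array weights and -0.0046 without those replicates. The Slc39a5 interaction was -0.28 with the processed signal, -0.032 with normexp, -0.0077 in the deposited table, -0.075 with no filter and -0.0060 without those replicates. The Mtf1 interaction was 0.036 as a mean over probes. With 1 array left out, the range between fasted groups was -0.041 to 0.054 for Slc39a14, -0.024 to 0.14 for Slc30a1 and -0.033 to 0.13 for Slc39a4, and the Slc39a5 interaction ran from -0.036 to 0.066. Slc39a5 lay near background, which limits its differences.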
